A study of Mus musculus with 6 samples.

Results

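Sperm carry much of their glycolysis on enzyme forms made only or mainly in germ cells. The RNA levels of 10 genes were followed here in mouse testis: 8 germ-cell isozymes (Aldoart1, Aldoart2, Gapdhs, Pgk2, Pgam2, Eno4, Ldhc and Ldhal6b) and, for comparison, Hk1 and Tpi1, which act in the same pathway and are also used by other tissues. They were chosen by symbol, all 10 were found among the 24411 genes listed, and all 10 passed the filter on low counts that kept 17110 genes for testing. The 6 libraries were made from whole testes of age-matched C57BL/6 mice, a standard inbred strain. In 3 of them both genes MRP5 and MRP9 are given as -/- (called labelled DKO below), and the other 3 are given as Wildtype (called labelled WT). MRP5 and MRP9, encoded by Abcc5 and Abcc12, are membrane transporters of the ABCC family. No treatment is given in the labels, the age itself and the design of the alleles are not stated in the sources used here, and the label does not name a cell type in which the genes were deleted. The labels do not say that the samples of a group came from separate animals, so p-values measure the spread between these samples, which may be technical.

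Glycolysis splits glucose into pyruvate and yields ATP and NADH. In sperm, several of its enzymes are bound along the fibrous sheath of the tail, where ATP is used by the dynein motors. Many of the genes are retrogenes or duplicated copies that are switched on in spermatocytes or spermatids, and Pgk2 stands in for the X-linked Pgk1, which is silenced in meiosis. Lactate dehydrogenase turns pyruvate into lactate and returns NAD to the GAPDH step.

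The libraries labelled DKO held 42673615 to 67131103 expected counts and those labelled WT 26753721 to 31745969, so depth did not overlap between the groups. Fragments averaged 294 ± 21.4 bases in labelled DKO and 245 ± 13.8 bases in labelled WT (SD, n = 3), again without overlap. A fit with fragment length as a covariate therefore separates it poorly from genotype, and its SEs are larger than those on genotype alone. The part of depth and fragment length in the results below was not tested beyond the fits named. The targeted gene Abcc12 was read at 72.6 to 82.4 CPM (counts scaled to a common library size by TMM) in libraries labelled DKO and at 158 to 165 CPM in those labelled WT. Abcc5 was not lower: it was read at 16.8 ± 0.190 CPM against 11.4 ± 0.898 CPM, without overlap (log2 fold change 0.56, edgeR adjusted p = 0.0225). The label gives a genotype and no amount of RNA, so the Abcc5 level does not check it. Groups are named by their labels throughout. The Abcc5 fold change was 0.38 with an effective-length offset and 0.27 on log2(TPM + 1) with limma (adjusted p = 0.107), and its call was also lost without DKO replicate 1, WT replicate 2 or WT replicate 3 (edgeR adjusted p = 0.098, 0.0562 and 0.0993). The estimated length of Abcc5 was 5405 to 5605 bases in libraries labelled DKO and 4831 to 5150 bases in those labelled WT. Reads outside a deleted stretch would check nothing, and which stretch the alleles lack was not known here. The tissue label was checked with fixed marker lists. Germ-cell, Sertoli and Leydig markers were present in every library. Of 6 markers of striated muscle and epididymis, 5 stayed below 0.5 TPM in all libraries (Acta1, Myh4 and Tnnt3 of muscle, Defb48 and Lcn5 of epididymis). The sixth, Ckm of muscle, had 0.94 to 0.97 TPM in libraries labelled DKO and 0.76 to 0.89 TPM in those labelled WT. Markers of muscle, another source of Pgam2, were thus low, with Ckm present in each library.

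Levels were compared between genes in TPM (a library's transcripts scaled to a fixed total, which accounts for transcript length). In libraries labelled WT, Ldhc was the most abundant member at 4079 ± 64.9 TPM (SD, n = 3 here and for each value with an SD below), and Gapdhs followed at 2209 ± 38.2 TPM. Pgam2 had 1712 ± 43.1 TPM and Hk1 had 1333 ± 52.2 TPM. These 4 genes stood apart from one another, with no overlap of their ranges. Ldhal6b, at 1135 ± 20.1 TPM, and Pgk2, at 1066 ± 62.9 TPM, had overlapping ranges. Aldoart2 had 745 ± 37.4 TPM, Tpi1 had 425 ± 6.73 TPM, Aldoart1 had 150 ± 2.75 TPM and Eno4 had 49.4 ± 1.69 TPM, each apart from its neighbours. The most and least abundant members, Ldhc and Eno4, belong to the last and the ninth of the steps that lead from glucose to lactate.

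The order in libraries labelled DKO was the same except in the middle. Gapdhs, at 1606 ± 288 TPM, overlapped Pgam2, at 1541 ± 128 TPM. Hk1, Pgk2 and Ldhal6b also overlapped, at 1205 ± 67.5, 1201 ± 36.8 and 1192 ± 26.4 TPM. The 10 genes together made up 1.29% of all TPM in libraries labelled WT and 1.21% in those labelled DKO. Their summed level was 12816 to 12960 TPM in libraries labelled WT and 11813 to 12359 TPM in those labelled DKO, without overlap. The sum includes Gapdhs, whose mean was 2209 TPM in labelled WT and 1606 TPM in labelled DKO. Mean TPM was lower in labelled DKO also for Pgam2, Hk1, Aldoart2, Tpi1 and Aldoart1, but higher for Ldhc, Pgk2, Ldhal6b and Eno4. The lower sum was therefore not shared by all members. How often sums of other genes separate was not computed.

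**Figure D1:**
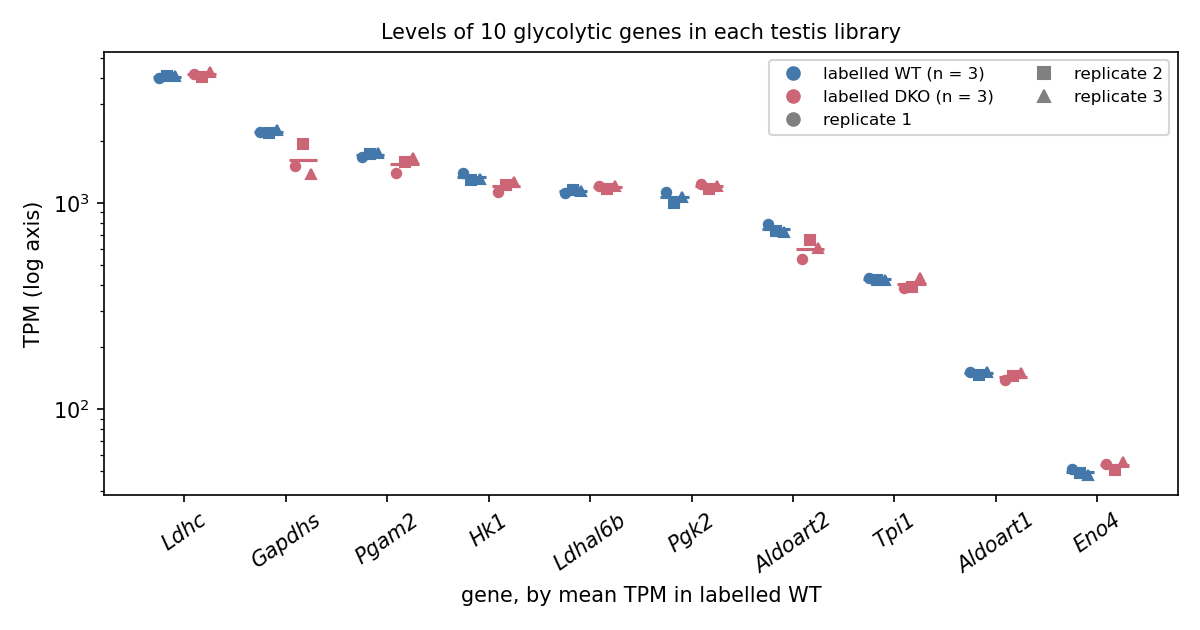
TPM of each gene (log axis) in the 3 libraries labelled WT (blue) and the 3 labelled DKO (red), ordered by the mean in labelled WT; symbols mark the replicate and bars the group mean. Ldhc is highest and Eno4 lowest in both groups, and the 3 points of Gapdhs labelled DKO (1378 to 1930 TPM) lie below those labelled WT (2171 to 2247 TPM).

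Each enzyme step was divided between the members and the other genes for the same reaction. The members held most of the RNA at 6 of 7 steps in libraries labelled WT. Pgk2 made up 97.5 to 98.5% of the phosphoglycerate kinase TPM, Hk1 97.8 to 98.0% of the hexokinase TPM and Pgam2 96.3 ± 0.656% of the phosphoglycerate mutase TPM. Gapdhs made up 89.7 ± 1.88% of the GAPDH step, Ldhc with Ldhal6b 81.1 ± 0.338% of lactate dehydrogenase, and Aldoart1 with Aldoart2 65.5 ± 1.15% of aldolase. Enolase was the exception, with 9.47 ± 0.278% from Eno4; the remainder came mostly from Eno1 and Eno1b, which carry shared fragments and cannot be cleanly separated from each other. The share did not overlap between the groups at 2 steps: Pgk2 held 98.53 to 98.67% in libraries labelled DKO against 97.48 to 98.47% in those labelled WT, and Eno4 held 10.3 to 11.7% against 9.21 to 9.76%. In TPM itself, Eno4 overlapped between the groups. How often such shares separate for other gene families was not computed, so the 2 steps have no background to be set against. These shares are given as a description.

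**Figure D2:**
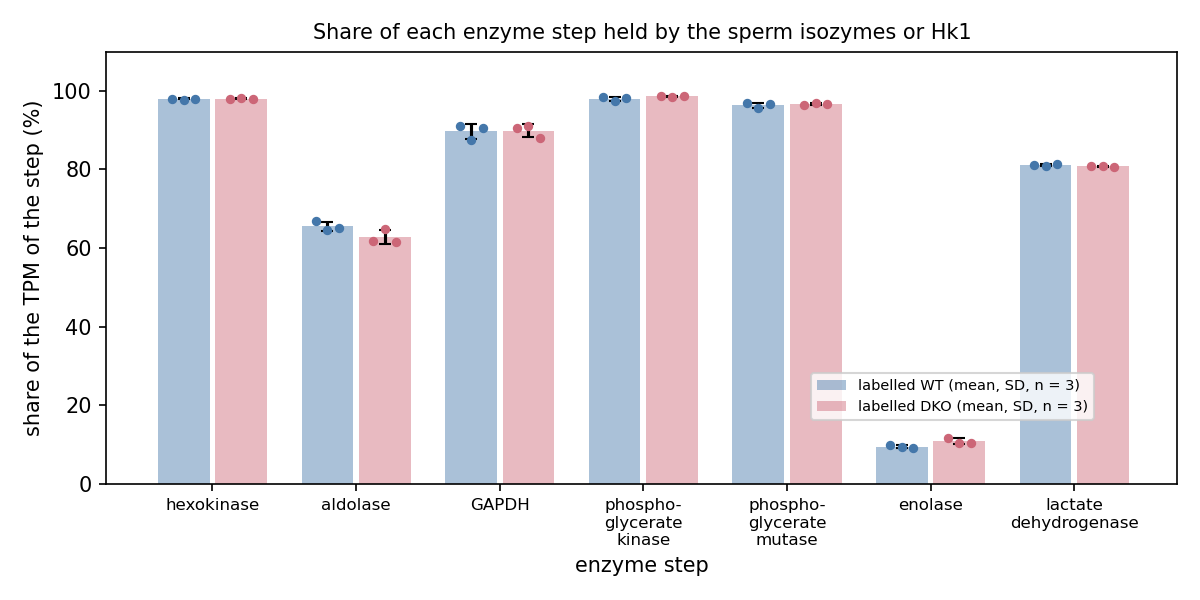
Share of the TPM of each enzyme step (percent) that came from Hk1 or the germ-cell isozymes, as means with SD bars and 1 point per library (labelled WT blue, labelled DKO red). The members hold over 60% of each step except enolase, where the share is 9.47% in labelled WT and 10.8% in labelled DKO.

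The first steps of the pathway were read from Hk1, the aldolase retrogenes and Tpi1. Positions are on GRCm38. Hk1 (chr10:62268855-62379920), which phosphorylates glucose and has germ-cell transcripts of its own, was read at 3072, 3392 and 3269 CPM in libraries labelled DKO (replicates 1, 2 and 3, as in each list below) and at 3738, 3179 and 3387 CPM in those labelled WT. The groups overlapped, and the log2 fold change (labelled DKO over labelled WT) was -0.08 (SE 0.0824; edgeR quasi-likelihood test, adjusted p = 0.525). In TPM, which sets a gene against all others per length, the same gene was lower in each library labelled DKO, at 1131 to 1264 against 1296 to 1392.

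Aldoart2 (chr12:55565205-55566896), a germ-cell aldolase copy without introns, was read at 522, 669 and 577 CPM in libraries labelled DKO and at 785, 670 and 694 CPM in those labelled WT. The highest library labelled DKO lay just under the lowest labelled WT. Its log2 fold change was -0.28 (SE 0.0984; edgeR adjusted p = 0.0787), short of the threshold of 0.05. It passed with DESeq2 (adjusted p = 0.0263) and in the edgeR fit without DKO replicate 2 (log2 fold change -0.39, adjusted p = 0.0431).

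The other aldolase retrogene, Aldoart1 (chr4:72850583-72852634), was read at 172, 184 and 178 CPM against 188, 168 and 182 CPM. The groups overlapped, and edgeR gave a log2 fold change of -0.01 (SE 0.0716, adjusted p = 0.924). Tpi1 (chr6:124810586-124814158), which interconverts the triose phosphates made by aldolase, was read at 353, 372 and 384 CPM against 404, 364 and 381 CPM. It also overlapped: edgeR gave -0.05 on the log2 scale (SE 0.0718, adjusted p = 0.663). The genotype difference of Aldoart2 itself was not tested against that of Aldoart1.

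Gapdhs (chr7:30729779-30744791) encodes the sperm form of glyceraldehyde-3-phosphate dehydrogenase, an enzyme of the fibrous sheath that sperm need for motility. It was the only member called between the genotypes. It was read at 1241, 1653 and 1105 CPM in libraries labelled DKO and at 1857, 1694 and 1833 CPM in those labelled WT. All libraries labelled DKO lay below all labelled WT, with replicate 2 close to the WT range and replicate 3 farthest from it. The mean was 74.3% of the labelled WT level, and Gapdhs fell by 0.43 on the log2 scale (SE 0.125; edgeR adjusted p = 0.04997). Across all tested genes, 10.8% were called in either direction and 5.10% were called lower, and Gapdhs stood at rank 1855 by p among the 1856 called.

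The call for Gapdhs sat at the threshold and depended on single libraries. Without DKO replicate 2 the log2 fold change was -0.62 (edgeR adjusted p = 0.00482). Without DKO replicate 1, DKO replicate 3, WT replicate 1, WT replicate 2 and WT replicate 3 in turn, the adjusted p from edgeR was 0.177, 0.0819, 0.0662, 0.103 and 0.143, with log2 fold changes from -0.48 to -0.31. It also missed the threshold with an offset from the effective lengths (log2 fold change -0.41, adjusted p = 0.0577), on log2(TPM + 1) with limma (adjusted p = 0.0516), and with fragment length as a covariate (log2 fold change -0.52, adjusted p = 0.999), a fit in which 1 gene was called. DESeq2 gave an adjusted p of 0.00435. The direction was lower in each of these fits.

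Promoter sequences were matched by symbol for 9 of the 10 members (RefSeq, GRCm38.p6, the assembly behind mm10, the build named in the submitters' processing notes). The 250 bases before the annotated start are shown for 4 of these because 3 of them, Gapdhs, Hk1 and Pgam2, share an 8-base word and the fourth, Ldhc, is the most abundant member and holds a related word. The capitals mark TGACATCA on either strand (read as TGATGTCA on the other) and, in Ldhc, TGACG. The words were chosen after these sequences were seen.
Gapdhs, chr7:30743682-30743931, minus strand: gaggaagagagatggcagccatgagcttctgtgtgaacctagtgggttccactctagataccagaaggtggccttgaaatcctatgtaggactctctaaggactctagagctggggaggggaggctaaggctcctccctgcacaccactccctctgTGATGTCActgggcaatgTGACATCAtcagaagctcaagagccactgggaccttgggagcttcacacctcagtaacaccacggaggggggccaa
Hk1, chr10:62379909-62380158, minus strand: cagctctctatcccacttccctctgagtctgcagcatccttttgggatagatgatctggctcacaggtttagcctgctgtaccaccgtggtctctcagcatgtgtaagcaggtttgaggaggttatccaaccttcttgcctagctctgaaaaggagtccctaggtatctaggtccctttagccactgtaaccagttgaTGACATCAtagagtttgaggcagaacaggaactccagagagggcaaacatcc
Pgam2, chr11:5803797-5804046, minus strand: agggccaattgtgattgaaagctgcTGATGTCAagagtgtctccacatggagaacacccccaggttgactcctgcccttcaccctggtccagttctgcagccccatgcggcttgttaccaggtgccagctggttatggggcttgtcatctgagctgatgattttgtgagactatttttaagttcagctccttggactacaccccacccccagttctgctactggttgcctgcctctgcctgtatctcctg
Ldhc, chr7:46861013-46861262, plus strand: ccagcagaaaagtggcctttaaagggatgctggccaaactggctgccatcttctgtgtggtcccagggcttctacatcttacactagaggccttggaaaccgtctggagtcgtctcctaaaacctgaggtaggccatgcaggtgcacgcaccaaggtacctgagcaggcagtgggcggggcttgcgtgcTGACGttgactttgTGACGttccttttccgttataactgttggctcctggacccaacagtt

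TGACATCA differs by 1 base from TGACGTCA, the cyclic AMP response element bound by CREB and, in spermatids, by CREM. It begins 94 and 76 bases before the Gapdhs start shown, 52 before the distal Hk1 start and 225 before the Pgam2 start. A second annotated Gapdhs start also has it in 2 places, at 70 and 52 bases before that start. Of 32851 mouse promoters of this length, 2.93% hold TGACATCA on either strand. Among the members 4 of the 12 promoter entries hold it, 2 of them of Gapdhs, so 3 of the 9 matched members do. Since the word was picked from these same sequences, the 2 shares make no test of enrichment. The full element TGACGTCA was in none of the 12 and in 1.55% of all promoters. TGACG, which the full element contains, was in 1 member entry and in 17.8% of all promoters. The 3 genes with TGACATCA include Gapdhs, the 1 called member, and Hk1, whose CPM overlapped between the groups. A match of letters is a description and no measure of binding.

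Pgk2 (chr17:40207018-40208609), a retrogene of the X-linked Pgk1, makes ATP in the step after GAPDH. It was read at 1122, 1098 and 1072 CPM in libraries labelled DKO and at 1046, 860 and 960 CPM in those labelled WT. All libraries labelled DKO were above all labelled WT, the opposite side from Gapdhs. The log2 fold change was 0.20 (SE 0.0817; edgeR adjusted p = 0.119) and did not pass; without WT replicate 1 it was 0.25 with an adjusted p of 0.0487. With fragment length as a covariate the value was 0.0038 (SE 0.131).

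Pgam2 (chr11:5801637-5803796), the muscle and germ-cell phosphoglycerate mutase, was read at 589, 708 and 699 CPM in libraries labelled DKO and at 750, 736 and 770 CPM in those labelled WT. The groups did not overlap, with DKO replicate 1 lowest. The log2 fold change was -0.18 (SE 0.0825; edgeR adjusted p = 0.167). Its transcript, at 906 bases, is the shortest of the 10. The value was -0.11 with the effective-length offset and 0.0252 (SE 0.132) with fragment length as a covariate.

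Eno4 (chr19:58934058-58971421), an enolase that sperm need for an intact fibrous sheath, was read at 87.6, 83.9 and 84.9 CPM in libraries labelled DKO and at 82.1, 72.3 and 74.1 CPM in those labelled WT. It was above the WT range in each library labelled DKO in CPM, whereas in TPM the groups overlapped (50.7 to 55.1 against 47.9 to 51.2). The log2 fold change was 0.17 (SE 0.0724, edgeR adjusted p = 0.140), and 0.0328 (SE 0.113) with fragment length as a covariate.

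Ldhc (chr7:46861263-46878147) encodes the germ-cell lactate dehydrogenase subunit, present from meiotic prophase on. It was read at 2999, 3018 and 3002 CPM in libraries labelled DKO and at 2928, 2809 and 2916 CPM in those labelled WT. The difference was small and the groups lay close to each other without overlap, while in TPM they overlapped (4068 to 4316 against 4005 to 4126). The log2 fold change was 0.06 (SE 0.0682; edgeR adjusted p = 0.579). Ldhal6b (chr17:5417323-5418767), an intronless testis copy of the family, was read at 971, 976 and 951 CPM against 918, 882 and 913 CPM. Its libraries labelled DKO all lay above those labelled WT, and edgeR gave 0.10 on the log2 scale (SE 0.0662, adjusted p = 0.344).

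Of the 10 members, 1 was therefore called lower and 0 higher (edgeR; 4 members had an unadjusted p under 0.05, against 31.7% of all tested genes, and DESeq2 called 2). In CPM, 7 of 10 did not overlap between the groups, 4 above (Pgk2, Eno4, Ldhal6b and Ldhc) and 3 below (Gapdhs, Aldoart2 and Pgam2). Such separation was common in these libraries: 35.9% of all tested genes did not overlap, 18.4% above and 17.5% below. In TPM, 6 of 10 did not overlap, 2 above (Pgk2 and Ldhal6b) and 4 below (Gapdhs, Aldoart2, Pgam2 and Hk1), against 33.2% of all tested genes (15% above and 18.2% below). The median log2 fold change of the 10 was -0.03, against -0.0042 for all tested genes, with 4 members positive and 6 negative. With fragment length as a covariate the log2 fold changes of Ldhal6b, Ldhc, Tpi1 and Aldoart1 were 0.0449, 0.0304, -0.0297 and -0.0437.

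**Figure D3:**
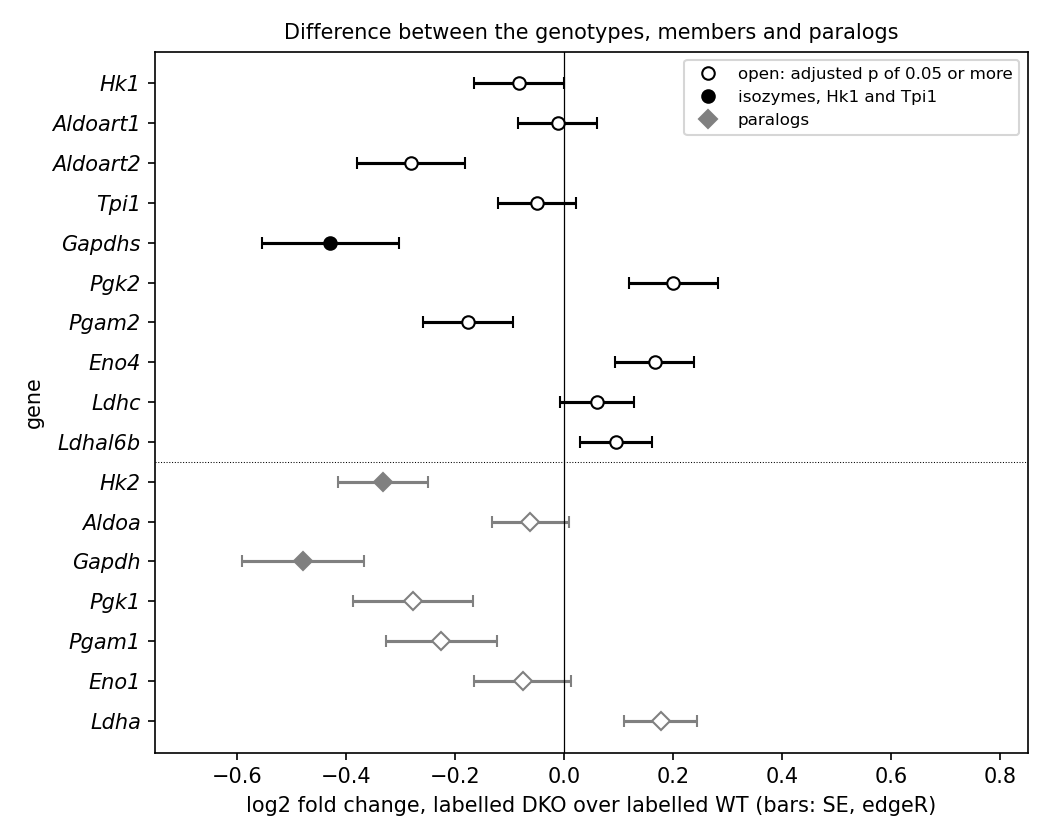
Log2 fold change of each member (black circles) and of the paralogs used for comparison (grey diamonds), with SE bars from edgeR; filled symbols passed an adjusted p under 0.05. Gapdhs (-0.43) is the only filled circle, and Gapdh (-0.48) and Hk2 (-0.33) are the filled diamonds.

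The members also differed in how they varied from library to library. Pgk2, Ldhc, Ldhal6b and Eno4 varied together, with Pearson correlations of log2 CPM between 0.887 and 0.961 over the 6 libraries. Gapdhs and Aldoart2 had a correlation of 0.883, Aldoart2 and Pgam2 one of 0.862, and Hk1 and Tpi1 one of 0.922. Hk1 also had correlations of 0.887 with Aldoart1 and 0.859 with Aldoart2, while Gapdhs and Pgam2 had one of 0.702. Between Gapdhs and Pgk2 it was -0.495. These values describe 6 points that share depth and scaling within a library, and both genotypes enter them. In libraries labelled DKO the 3 lower members had their lowest values in different libraries: Gapdhs was lowest in replicate 3, whereas Aldoart2 and Pgam2 were lowest in replicate 1.

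**Figure D4:**
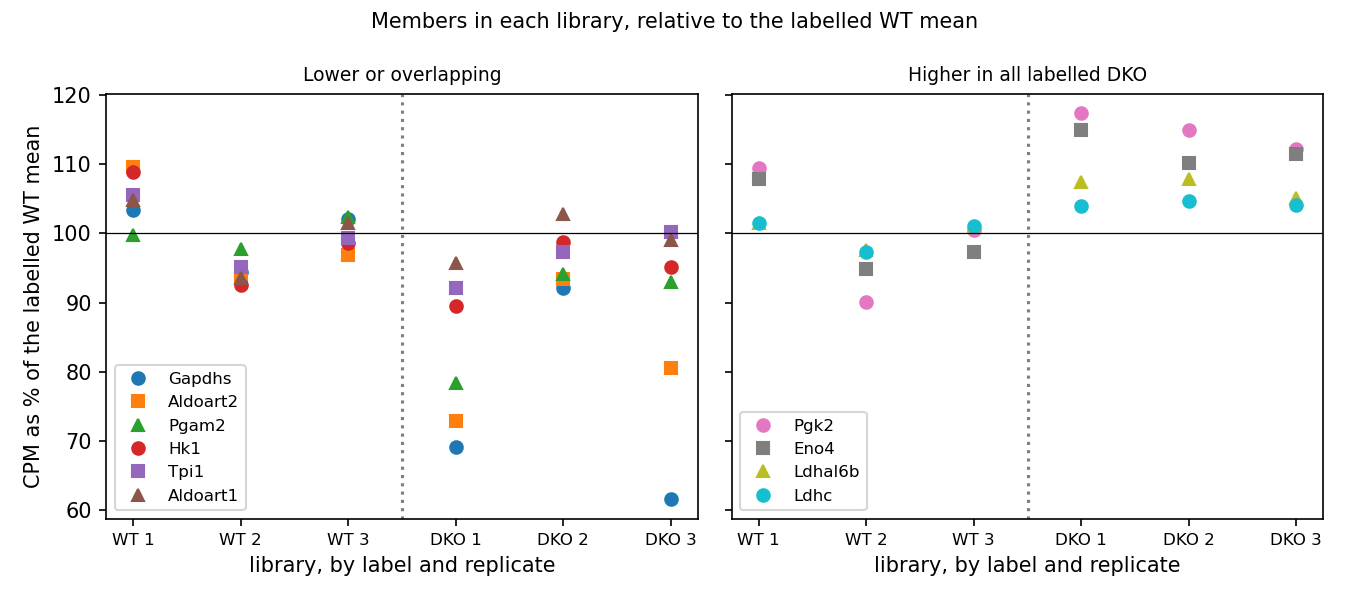
CPM of each member in each library as a percent of its mean in labelled WT (line at 100), with labelled WT left and labelled DKO right of the dotted line in each panel. Gapdhs has the widest spread among libraries labelled DKO (1105 to 1653 CPM), while Ldhc stays between 2999 and 3018 CPM there.

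The isozymes were next set against Hk1 and Tpi1 within each library, as log2 ratios of TPM (with 0.1 added to each value), which removes the scaling of the library. Relative to Tpi1, Gapdhs stood at 1.97, 2.30 and 1.68 in libraries labelled DKO and at 2.35, 2.37 and 2.42 in those labelled WT, a difference of -0.39 (SE 0.182). Relative to Hk1 the Gapdhs difference was -0.33 (SE 0.159). Aldoart2 was likewise lower against both, by -0.24 (SE 0.0943) for Tpi1 and -0.17 (SE 0.0628) for Hk1. Pgk2 went the other way, with 0.26 (SE 0.0667) against Tpi1 and 0.32 (SE 0.0675) against Hk1. Eno4 (0.20 and 0.26), Ldhal6b (0.15 and 0.22) and Ldhc (0.13 and 0.19) were also higher against Tpi1 and Hk1. Each ratio includes the difference of the gene it is set against. Mean TPM in labelled DKO was 90.4% of labelled WT for Hk1 and 94.6% for Tpi1. In TPM itself, Eno4 and Ldhc overlapped between the groups.

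In all, 13 of the 16 ratios did not overlap between the groups, 9 above and 4 below. The 9 include Aldoart1 to Hk1, although Aldoart1 itself overlapped in TPM, with a mean in labelled DKO at 96.2% of labelled WT. The 3 that overlapped were Pgam2 to Hk1, Pgam2 to Tpi1 and Aldoart1 to Tpi1, with differences of -0.0089, -0.07 and 0.03. Each of the 13 had an exact two-sided permutation p of 0.1, the smallest that 3 against 3 libraries allow, and 0.123 after adjustment over the 16 ratios, so none could pass the threshold. The ratios to 1 gene share that gene and are not independent. How often the ratios of other tested genes to Hk1 or Tpi1 separate was not computed, so the count of 13 has no background share. In TPM itself, 33.2% of all tested genes did not overlap. Relative to the same 2 genes, Gapdhs and Aldoart2 lay on 1 side and Pgk2, Eno4, Ldhal6b and Ldhc on the other, which is given as a description.

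The ratio of each isozyme to its paralog gave a second view. In libraries labelled WT, Hk1 stood 83.1 ± 11.7 times above Hk2 in TPM, Pgk2 51.9 ± 12.8 times above Pgk1, Pgam2 26.9 ± 4.62 times above Pgam1 and Gapdhs 8.93 ± 1.67 times above Gapdh. Ldhc stood 3.84 ± 0.0509 times above Ldha, Aldoart2 1.60 ± 0.0887 times above Aldoa and Ldhal6b 1.07 ± 0.0138 times above Ldha, while Aldoart1 and Eno4 were below Aldoa and Eno1 (ratios of 0.320 ± 0.0098 and 0.262 ± 0.0198). Between the genotypes, 5 of the 9 log2 ratios did not overlap (exact permutation p = 0.1 each, 0.18 after adjustment over 9). The share of such separation among ratios of other genes was not computed. Pgk2 to Pgk1 was higher by 0.47 (SE 0.216) and Hk1 to Hk2 by 0.26 (SE 0.124) in libraries labelled DKO. Aldoart2 to Aldoa was lower, at -0.22 (SE 0.0921), as were Ldhc to Ldha, at -0.09 (SE 0.0113), and Ldhal6b to Ldha, at -0.07 (SE 0.0130).

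For Gapdhs to its paralog Gapdh the difference was 0.02 (SE 0.225; exact permutation p = 0.7), since both were lower in libraries labelled DKO. With fragment length as a covariate the log2 fold changes were -0.52 (SE 0.249) for Gapdhs and -0.0300 (SE 0.145) for Gapdh, and their difference was not tested. Without DKO replicate 1, DKO replicate 2 or WT replicate 2 the difference of the ratio was negative, at -0.0257, -0.0791 and -0.14. Gapdh was read at 124, 154 and 146 CPM in libraries labelled DKO and at 174, 231 and 187 CPM in those labelled WT, and fell by 0.48 on the log2 scale (SE 0.112; edgeR adjusted p = 0.0326). All 6 libraries carried fractional counts for Gapdh, so its fragments were shared with other genes, and its level is uncertain to that extent.

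The rest of the pathway was described from a list of 30 further genes, all found in the files and 27 of them tested. Of the 27, 3 were called lower and 0 higher (edgeR; 5.10% and 5.75% of all tested genes), and the median log2 fold change was -0.06. The 3 were Gapdh, Hk2 and Pfkl, a hexokinase and a phosphofructokinase subunit of other tissues; Hk2 fell by 0.33 (SE 0.0831; edgeR adjusted p = 0.0360) and Pfkl by 0.50 (SE 0.125; adjusted p = 0.0358). None of these 3 calls held without DKO replicate 1, WT replicate 2 or WT replicate 3 (edgeR adjusted p from 0.0988 to 0.141), and those of Hk2 and Pfkl were also lost without DKO replicate 2 (0.0633 and 0.0560). With fragment length as a covariate the log2 fold changes were -0.0668 (SE 0.114) for Hk2, 0.0042 (SE 0.160) for Pfkl and -0.0300 (SE 0.145) for Gapdh. Ldhb and Pkm, the heart-type lactate dehydrogenase subunit and pyruvate kinase, had log2 fold changes of -0.37 and -0.28 and did not pass (edgeR adjusted p = 0.0500006 and 0.0527). Ldha, the muscle-type subunit, had 0.18 (edgeR adjusted p = 0.0982). The more abundant of the others included Aldoa, Gpi1, Eno1b and Eno1, at 467 ± 5.85, 351 ± 6.79, 237 ± 14.6 and 189 ± 12.8 TPM in libraries labelled WT, with log2 fold changes from -0.08 to 0.02.

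Several of these paralogs were highest in WT replicate 2. In TPM, so were 5 of 8 Sertoli, 5 of 7 Leydig, 5 of 5 peritubular myoid, 5 of 6 macrophage and 2 of 4 endothelial markers. Gapdh, Hk2, Pfkl, Pgk1, Pgam1 and Ldhb each had their highest CPM in that library. Aldoa, Eno1 and Ldha, also paralogs used in the ratios, had theirs in WT replicate 1, DKO replicate 3 and DKO replicate 1. The share of all tested genes that were highest in WT replicate 2 was not computed. The summed TPM of 8 Sertoli markers was 873 to 1083 in libraries labelled DKO and 978 to 1313 in those labelled WT, with 1313 in WT replicate 2, of which Clu gave 1139. For 7 Leydig markers it was 831 to 1472 against 1447 to 3041, with 3041 in WT replicate 2. Insl3, whose counts were fractional in 6 of 6 libraries, gave 2576 of these, and without it the Leydig sums were 249 to 327 against 233 to 466. For 5 peritubular myoid markers the sum was 64.3 to 75.2 against 75.4 to 111, without overlap. The called genes of these lists were all lower (Cldn11 and Rhox5 of Sertoli, Star and Insl3 of Leydig and Tagln of myoid cells). Log2 fold changes were negative for 6 of 8 Sertoli, 6 of 7 Leydig and 5 of 5 myoid markers. They were positive for Wt1 and Fshr of Sertoli (both 0.08) and Hsd3b1 of Leydig cells (0.21). The sums of 6 macrophage markers (39.8 to 48.9 against 37.3 to 64.5 TPM) and 4 endothelial markers (8.03 to 10.03 against 9.82 to 11.54 TPM) overlapped, with 0 called in either list by edgeR. The part of these cells in the differences of the paralogs was not tested.

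Germ-cell markers were set beside the isozymes in the same way. The summed TPM of 9 spermatocyte markers did not overlap (1142 to 1317 in libraries labelled DKO, 1038 to 1115 in those labelled WT). DKO replicate 1 gave 1317 and held the highest TPM of 6 of the 9. Log2 fold changes were positive for 6 of the 9 and negative for 3 (Tex101, Ccna1 and Piwil1). Of the 9, 2 were called, both higher: Sycp3 and Hormad1 of the meiotic chromosome axis. The CPM of Hormad1 overlapped between the groups (99.3 to 167 against 78.4 to 101). Among 9 elongating spermatid markers 2 were called, again higher: Akap4 (log2 fold change 0.35, SE 0.0836; edgeR adjusted p = 0.0341) and Akap3 (0.52, SE 0.116; adjusted p = 0.0299), the anchoring proteins of the fibrous sheath. Of the other 7, 5 had negative and 2 positive log2 fold changes that did not pass. The median of the 9 was -0.02, and their summed TPM overlapped (115142 to 124740 against 106747 to 116826). The direction of the 5 depended on the scale. In mean TPM, Tnp1, Prm1, Smcp and Prm2 stood at 108.6, 106.6, 100.9 and 100.1% of labelled WT, and Odf1 at 92.7%. For Tnp1 all libraries labelled DKO lay above all labelled WT in TPM. Akap4 was read at 2535, 2411 and 2309 CPM against 2065, 1722 and 1906 CPM, on the opposite side from Gapdhs and the same side as Pgk2 and Eno4. In edgeR fits without DKO replicate 1, WT replicate 2 or WT replicate 3, 0 of all tested genes were called higher. The same held with fragment length as a covariate, so the higher calls of Sycp3, Hormad1, Akap3 and Akap4 were lost in each. Of 8 round spermatid markers 0 were called (edgeR), with overlapping sums of 1849 to 2035 against 1788 to 2024 TPM, and of 8 spermatogonial markers also 0 (115 to 132 against 112 to 131 TPM). In whole testis, fewer cells of a type and less RNA per cell cannot be told apart, and the part of cell composition in the isozyme differences was not tested.

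RSEM also gives each gene a length, weighted by the estimated share of each annotated transcript; 2 members had more than 1 transcript. The length of Hk1 was 4119, 4121 and 4124 bases in libraries labelled DKO and 4124, 4125 and 4123 in those labelled WT (exact permutation p = 0.3). That of Gapdhs stayed within 0.69 bases over the 6 libraries (exact permutation p = 0.3). With 3 against 3 libraries this test cannot go below 0.1, so it could not have passed. The counts of 9 members were whole numbers (within 0.001) in every library, and Aldoart1 had a fractional count in 1 library, so few fragments were shared with other genes in the estimates. Gapdhs overlaps the antisense genes Tmem147os and Gm26935, whose levels were not analysed here. Ldhal6b lies within Tmem242 and also overlaps Gm29050 (not analysed here), Eno4 overlaps Hspa12a, Hk1 overlaps Hk1os and Tpi1 overlaps Spsb2 in GENCODE M21. Tmem242 lies on the same strand as Ldhal6b, so strand handling would not separate that pair. The other overlapping genes named lie on the opposite strand of their member. Strand handling is not given in the sources used here, so whether reads of these genes entered the counts of a member was not known. Tmem242 had 44.2 to 51.6 TPM, Spsb2 48.4 to 52.0, Hspa12a 4.83 to 5.48 and Hk1os at most 0.72 TPM, each below the member it overlaps.

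The genes whose library pattern was most like that of a member were sought among 8031 genes with a mean of at least 10 TPM, by the Pearson correlation of log2 CPM over the 6 libraries. For Gapdhs they were Gm5941, Sh2b3 and 1110038B12Rik (0.998, 0.998 and 0.995). Gm5941 was read at 116, 167 and 107 CPM in libraries labelled DKO and at 189, 172 and 185 CPM in those labelled WT, with the same library of each group nearest the other. For Pgk2 they were Rnf19a, Nbr1 and 1700018C11Rik (0.999, 0.996 and 0.995). For Ldhc they were Tacc3, Cdrt4 and Senp3 (0.993, 0.991 and 0.990), and for Hk1 they were Lmntd2, Stard10 and Ccnt1 (0.998, 0.995 and 0.992). Of these 12 genes, Gm5941 and 1110038B12Rik were called lower and Cdrt4 higher. The values are the best of 8031 genes over 6 points that share depth and scaling, and are given as a description.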

How the data were processed

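RNA sequencing of testis was deposited as 1 gene-level RSEM table per library, per the file headers, for 3 libraries labelled DKO and 3 labelled WT. Per the submitters' processing notes, STAR 2.7.0f, RSEM 1.2.31, DESeq2 1.12.3 and mm10 were used; strand handling and read filters are not given in the sources used here. In the authors' tables, expected counts are RSEM's estimates of fragments per gene, not normalized. The TPM and FPKM values deposited by the authors are scaled by effective length; FPKM was not used. Expected counts were rounded, filtered by filterByExpr and scaled by TMM in edgeR 4.0.16, and tested over all 6 libraries by the quasi-likelihood test on genotype alone. Benjamini-Hochberg adjustment of p-values was made over all 17110 tested genes, with a threshold of 0.05. SEs of log2 fold changes were derived from the F statistic. Ratios were compared by exact two-sided permutation tests (scipy 1.17.1). The test was checked on simulated data. Replicates were numbered in deposition order, and the numbers pair no animals; no pair of libraries matched within sampling noise (lowest chi-square over its degrees of freedom 6.48). Totals of 26753721 to 67131103 left at least 2165 counts for each member in each library.

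Members and lists were chosen with earlier results of these data known. Named genes are the members, their paralogs, the called or more abundant genes of the glycolysis list, the 3 genes most correlated with each of Gapdhs, Pgk2, Ldhc and Hk1, and the targeted genes. Called cell markers and overlapping genes were named after their values were seen. Alternatives were other scalings, filters, tools (DESeq2 1.42.0, limma 3.58.1), an effective-length offset, fragment length as a covariate, thinning and leaving out each library.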

Additional observations from a re-analysis of the deposited data

How the results depend on the processing

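No paired analysis was possible because the labels give no number shared between the groups. The count of called genes was 1856 and ranged from 7 to 3029 without 1 replicate (0 to 1903 higher, 7 to 1126 lower); the called members ranged from 0 to 2 and the called glycolysis genes from 0 to 6. Omitting WT replicate 3 left 7 calls, omitting DKO replicate 1 left 11, and omitting WT replicate 2 left 13. DESeq2 called 2943 genes (1645 higher), 2 members and 6 glycolysis genes, with Aldoart2 at -0.29. Limma on log2(TPM + 1) called 735 (279 higher, 456 lower), 0 members and 0 glycolysis genes, with Gapdhs at -0.47; on log2(TPM + 0.1) it called 947 (370 higher, 577 lower) and 1 glycolysis gene. Higher calls made up 53.0% of all calls, against 38.0% and 39.1% on the TPM scales. The effective-length offset called 0 members (Gapdhs -0.41). Fragment length as a covariate called 1 gene (0 higher, 1 lower), 0 members and 0 glycolysis genes, with 545 genes at an unadjusted p under 0.05; Gapdhs was at -0.52, Pgam2 reversed to 0.0252 and Pfkl to 0.0042. With DESeq2 size factors, no filter, a mean count of at least 50 or thinning, 5 glycolysis genes were called. The cause of these shifts was not tested.

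Across the fits without 1 replicate, log2 fold changes ranged from -0.62 to -0.31 for Gapdhs, 0.12 to 0.25 for Pgk2, -0.39 to -0.21 for Aldoart2 and -0.0652 to 0.0071 for Aldoart1. The ratio differences that reversed without 1 replicate were Gapdhs to Gapdh (-0.14 to 0.17), Pgam2 to Pgam1 (-0.0480 to 0.20) and Pgam2 to Hk1 (-0.0613 to 0.0178). The other 22 ratios kept their direction under each pseudocount, with scaled counts in place of TPM and without each replicate.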
